A study of Mus musculus with 15 samples.

Results

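Renal eicosanoid metabolism was followed in mouse kidney through 9 genes, 7 cytochrome P450s (Cyp4a10, Cyp4a12a, Cyp4a12b, Cyp4a14, Cyp4b1, Cyp2j5 and Cyp2e1) and 2 epoxide hydrolases (Ephx1 and Ephx2). They were chosen by name, as a list of enzymes that make or clear oxygenated fatty acids, and all 9 were among the 12364 genes that passed a filter on low values, of 13929 genes with a transcript in every file. The kidneys came from 15 wild-type (WT) male C57BL/6 mice, young adults at the start, in 3 groups of 5. Control mice carried a subcutaneous osmotic pump with saline for 28 days, Ang II mice received angiotensin II at 500 ng/kg/min from the pump for the same time, and Ang II + QDG mice received the same infusion with QDG at 1.145 g/kg/day by gavage, while Control and Ang II mice were gavaged with water. QDG, Qingda granule, is an extract of 4 herbs (Gastrodia elata, Uncaria rhynchophylla, Scutellaria baicalensis and Nelumbo nucifera). No group received QDG without Ang II, so what QDG does in saline-infused mice cannot be read from these data.

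Arachidonic acid released from membranes is oxidised by P450s along separate routes. CYP4A enzymes hydroxylate the far end of the chain, which yields 20-HETE, a constrictor of renal arterioles that also alters tubular sodium transport, whereas epoxygenases such as CYP2J enzymes yield epoxyeicosatrienoic acids (EETs), which are mostly dilators and favour sodium excretion. Soluble epoxide hydrolase, the product of Ephx2, hydrolyses EETs to less active diols, and microsomal epoxide hydrolase, the product of Ephx1, acts mainly on epoxides of foreign compounds and also on EETs. In mouse kidney these P450s are known mainly from the proximal tubule, Cyp4a12a is known to be held up by androgen, and Cyp4a10 and Cyp4a14 are known targets of the fatty acid receptor PPAR alpha.

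The RNA came from whole renal tissue, so fewer cells of a type and less RNA per cell cannot be told apart. Values are FPKM, fragments per kilobase of transcript relative to the library's total, which are scaled for length and allow levels to be compared between genes. They were summed over the annotated transcripts of a gene that all files list. The depth that the values imply was 68922840 to 81329479 reads or fragments per mouse, and the members rested on a median of 2778 (Cyp4a12b) to 202897 (Cyp4b1) of them. Markers of the proximal tubule were abundant in every mouse (7 of 7 genes listed, summed 7360 to 9710 FPKM). Podocyte markers (4 of 4 listed) summed to 76.6 to 85.7 FPKM in Control and 103 to 130 FPKM in Ang II, without overlap, and to 100 to 127 FPKM in Ang II + QDG. Adipocyte markers (6 of 6 listed) were uneven in every group, with a median of 4.21 and a highest sum of 81.9 FPKM in Control, 4.27 and 157 in Ang II, and 10 and 48.1 with QDG. Of the adrenal markers Cyp11a1, Cyp11b1 and Cyp11b2 were not listed. Changes are log2 fold changes of FPKM + 1, tested with limma in 1 model of all 15 mice, and a gene was called at a Benjamini-Hochberg adjusted p under 0.05 over the 12364 genes of a comparison.

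Levels ran over a wide range, and the order was fixed across mice only for Cyp4b1 and Ephx2. Cyp4b1, a P450 that hydroxylates medium-chain fatty acids, had the highest level of the 9 in all 15 mice and ranked 28 of the 12364 genes by its mean of 1420 FPKM. Cyp2e1, known for the oxidation of ethanol and acetone, followed with a mean of 777 FPKM, and the epoxygenase Cyp2j5 with 638 FPKM. This pair changed places, with Cyp2e1 above Cyp2j5 in 12 of 15 mice and below it in the others. Ephx2 had a mean of 209 FPKM and was the fourth in every mouse. Below it came Cyp4a10 (mean 110 FPKM), Cyp4a12a (48.8 FPKM), Cyp4a14 (48.3 FPKM), Ephx1 (24.1 FPKM) and Cyp4a12b (15.8 FPKM). Neighbours at the lower end were close: Cyp4a12a exceeded Cyp4a14 in 9 of 15 mice, Cyp4a14 exceeded Ephx1 in 12, and Ephx1 exceeded Cyp4a12b in 12. Cyp4a12a held places 5 to 8 among the mice, and Cyp4a14 and Ephx1 places 6 to 9.

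**Figure D1:**
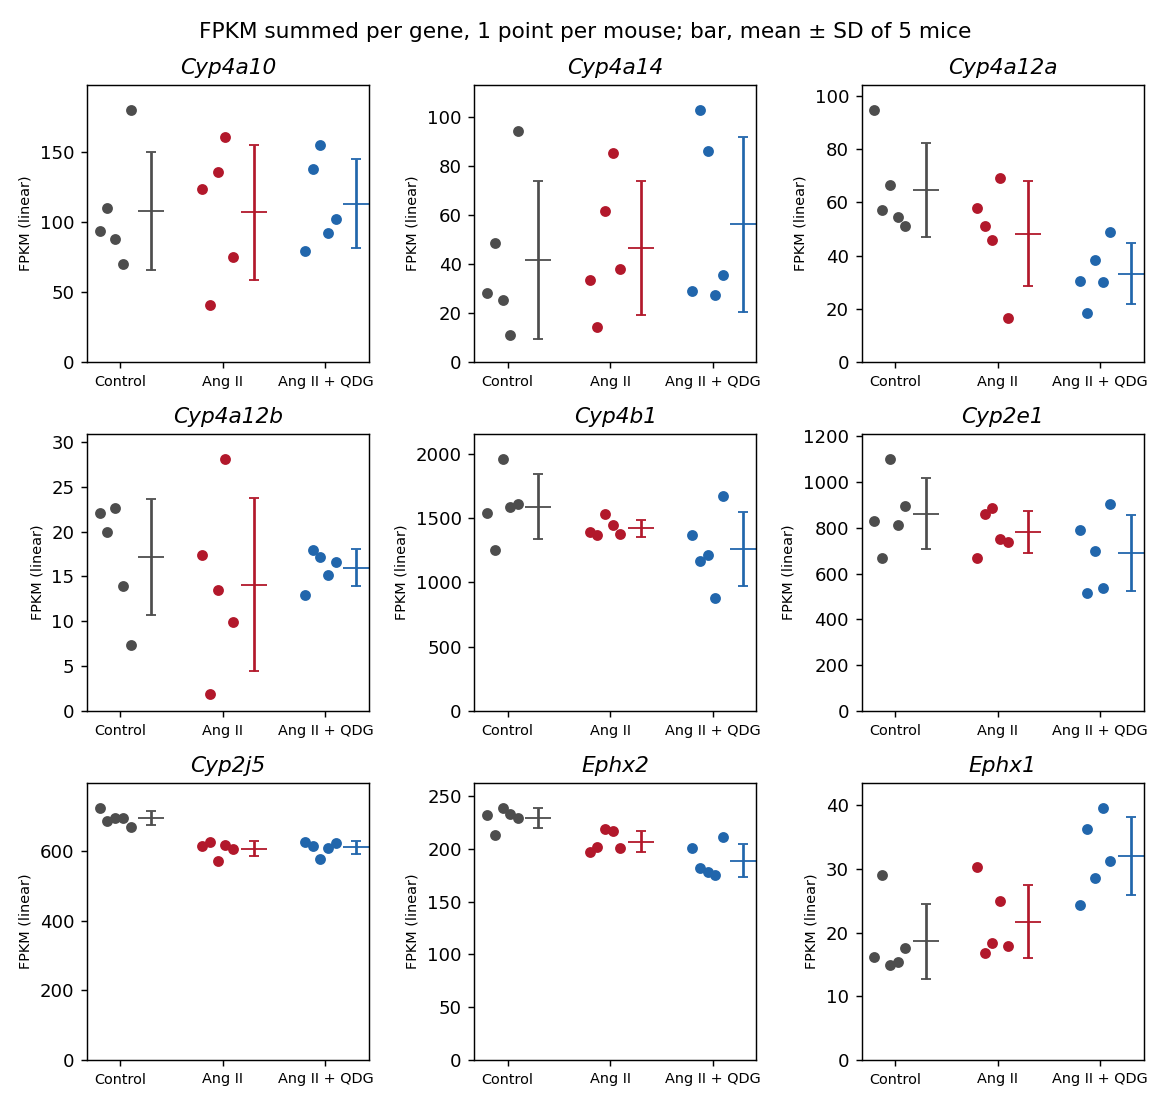
FPKM per gene on linear axes from 0, with 1 point for each of 5 mice per group and a bar at the mean ± SD. Cyp2j5 sits at 670 to 725 FPKM in Control and at 571 to 628 FPKM in the 10 Ang II-infused mice, whereas Cyp4a14 spreads from 11.3 to 103 FPKM with the groups mixed.

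The members also differed in how much mice of 1 group varied. For Cyp2j5 the SD between mice within groups was 0.05 on the log2 scale, and among the 4905 genes with a mean of at least 10 FPKM 0.55% had a smaller one. Ephx2 followed with an SD of 0.09 (11.9% of those genes were smaller). Cyp4b1 (0.24), Cyp2e1 (0.27) and Ephx1 (0.34) were intermediate, and the Cyp4a genes varied most, with 0.58 for Cyp4a12a, 0.59 for Cyp4a10, 0.82 for Cyp4a12b and 0.98 for Cyp4a14. The highest Control mouse exceeded the lowest 1.08-fold for Cyp2j5 and 8.39-fold for Cyp4a14. A change of a given size was therefore far easier to detect in Cyp2j5 or Ephx2 than in a Cyp4a gene.

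In Ang II vs. Control, 1 of the 9 members was called, Cyp2j5, which was lower. Over all genes 5.94% were called in this comparison, 4.95% as higher and 0.995% as lower (612 and 123 genes, and 201 and 269 after median scaling). The median log2 fold change of the members was −0.15 against 0.08 over all genes tested, and 7 of the 9 had a negative value. In Ang II + QDG versus Ang II alone none of the 9 was called by limma, where 1.81% of all genes were (0.526% higher and 1.29% lower, 65 and 159 genes, and 97 and 97 after quantile normalization). There, 2 members (Ephx1 and Ephx2) had an unadjusted p under 0.05, as did 16.4% of all genes, and in Ang II vs. Control it was 2 members (Cyp2j5 and Ephx2) and 22.7%. In Ang II + QDG versus Control none was called, with 0.129% of all genes called, and 5 members had an unadjusted p under 0.05 (14.4% of all genes): Ephx2, Cyp2j5, Ephx1, Cyp4a12a and Cyp4b1. No member reached the study's own threshold for a differentially expressed transcript, a fold change of at least 2 with an unadjusted p under 0.05, in any comparison, on gene sums of FPKM + 1, and 1.06%, 0.801% and 0.736% of all genes did so in the order given. Cyp4a12a stood at its edge against Control and reached it after median scaling (log2 fold change −1.05) and in 5 of 15 fits without 1 mouse. Groups did not overlap for 1 member in Ang II vs. Control (Cyp2j5, lower), for none in Ang II + QDG versus Ang II alone and for 3 in Ang II + QDG versus Control (Cyp2j5, Ephx2 and Cyp4a12a, all lower), where 7.92%, 4.99% and 3.64% of all genes did not overlap in either direction. The comparisons share mice, so they are not independent of each other.

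**Figure D2:**
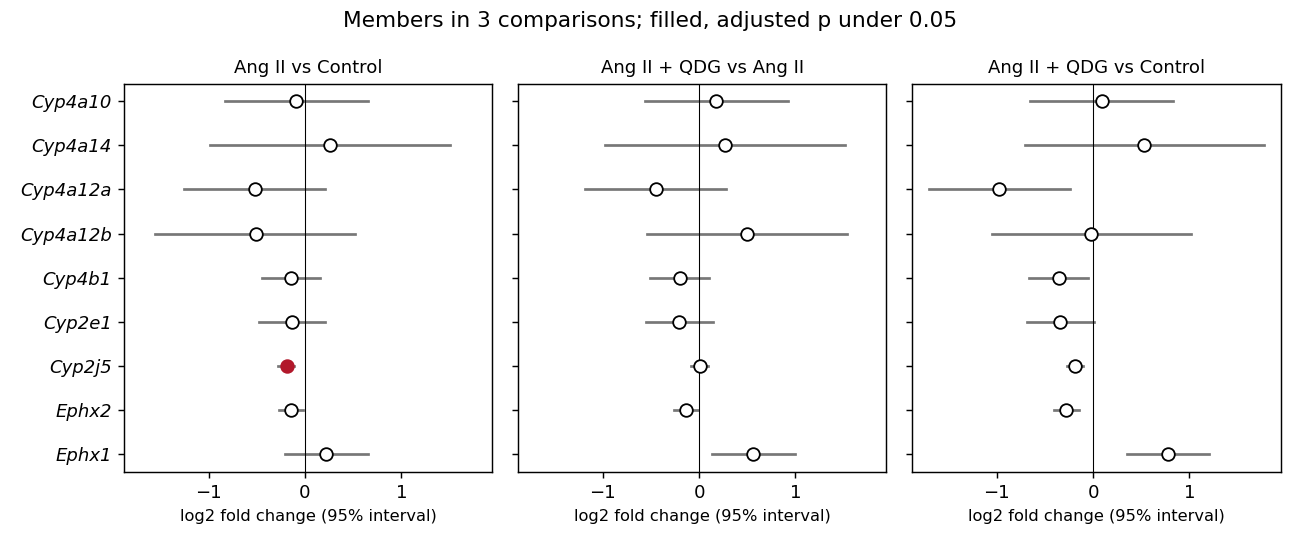
Log2 fold change of FPKM + 1 with its 95% interval for the 9 members in each comparison; a filled point has an adjusted p under 0.05. The single filled point is Cyp2j5 in Ang II vs. Control at −0.19, and the intervals of the Cyp4a genes are several times as wide as those of Cyp2j5 and Ephx2.

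Cyp2j5, the abundant arachidonate epoxygenase of mouse kidney, was lower in every Ang II-infused mouse than in any Control mouse. Its levels were 725, 686, 697, 697 and 670 FPKM in the 5 Control mice. The Ang II mice had 614, 627, 571, 618 and 606 FPKM. With QDG the levels were 628, 615, 577, 609 and 623 FPKM. Neither infused group overlapped Control, and both infused groups covered nearly the same range. The mean fell from 695 ± 19.8 to 607 ± 21.7 FPKM (SD, n = 5 each) in Ang II, a log2 fold change of −0.19 (standard error 0.04, 95% interval −0.28 to −0.11, adjusted p = 0.0151 from limma), or 0.874 of the Control level. Between Ang II + QDG and Ang II the log2 fold change was 0.01 (95% interval −0.08 to 0.09, adjusted p = 0.947). Against Control, Ang II + QDG gave −0.19 (95% interval −0.27 to −0.1), with an unadjusted p of 3.09e-04 and an adjusted p of 0.0749 from limma, so the same size of difference passed the threshold in 1 comparison and missed it in the other. Groups did not overlap, with the first lower, for 1.42% of all genes in Ang II vs. Control and 0.857% when QDG-treated mice were set against Control. Podocyte markers moved with the Ang II groups, as given above, whereas summed proximal tubule markers overlapped (7660 to 9230 FPKM in Control, 7360 to 9710 in Ang II and 7490 to 9050 with Ang II + QDG); the part of either in the Cyp2j5 difference was not tested. Cyp2j5 has a single annotated transcript (ENSMUST00000030299, chr4:96628773-96664154, minus strand, GRCm38), which was also called at the transcript level (adjusted p = 0.0346, where 0.691% of 28812 transcripts were called). That transcript-level call was lost after quantile normalization, with only the 2 groups compared, and in 8 of 15 fits without 1 mouse (Control mouse 1, 2, 3 or 4, or Ang II mouse 1, 2, 3 or 5). No other transcript of a member was called there, and none was called with QDG, either against Ang II (0.0972% of all transcripts) or against Control (0.0243%). None of the 100-base windows of Cyp2j5 is shared with another annotated gene.

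The 3 genes whose levels were most like those of Cyp2j5 over the 15 mice, by Pearson's r on log2(FPKM + 1), were Tmem126b (r = 0.923), Xpr1 (0.871) and Anxa13 (0.861). Since they were chosen for this likeness, their own differences between groups were not read as further evidence.

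The sequence before the RefSeq start site of Cyp2j5 is shown because it is the member that was called. It covers 250 bases on GRCm38.p6 and is printed 5′ to 3′ on the gene's strand. Capitals mark matches to the motifs searched on both strands, which were TATAAA of core promoters, AGGTCA as bound by nuclear receptors and its DR1 repeat, AGAACA as bound by steroid receptors, GTTAAT as bound by HNF1 factors, and the cyclic AMP element TGACGTCA.
Cyp2j5 (chr4:96664120-96664369, minus strand): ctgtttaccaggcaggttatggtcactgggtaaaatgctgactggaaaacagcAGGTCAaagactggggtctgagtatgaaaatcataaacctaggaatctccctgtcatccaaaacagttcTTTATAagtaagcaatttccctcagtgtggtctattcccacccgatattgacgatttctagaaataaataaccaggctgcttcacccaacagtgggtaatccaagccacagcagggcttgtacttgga
Counted from the start site, the capitals are AGGTCA at −197 and, on the opposite strand, TATAAA at −128. Of 32851 promoters of this length, 14% hold AGGTCA, 12.4% TATAAA, 16.1% AGAACA, 6.4% GTTAAT and 1.5% TGACGTCA. The DR1 repeat, which contains AGGTCA, is in 11 of them.

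Neither epoxide hydrolase was called, and their log2 fold changes were opposite in sign in all 3 comparisons. Ephx2, which encodes soluble epoxide hydrolase, had 232, 213, 239, 233 and 229 FPKM in Control. It had 197, 202, 219, 217 and 201 FPKM in Ang II and 201, 182, 178, 175 and 211 FPKM in Ang II + QDG. The Ang II range overlapped Control, whereas every Ang II + QDG mouse was below every Control mouse. The means were 229 ± 9.52, 207 ± 9.87 and 189 ± 15.7 FPKM (SD, n = 5 each). Its log2 fold change of −0.15 (standard error 0.06) had an adjusted p of 0.149 in Ang II vs. Control and that of −0.13 (standard error 0.06) an adjusted p of 0.267 in Ang II + QDG versus Ang II alone. In Ang II + QDG versus Control it was −0.28 (95% interval −0.4 to −0.15), with an unadjusted p of 2.76e-04 and an adjusted p of 0.0735 from limma, which misses the threshold. Without Ang II + QDG mouse 5 the adjusted p was 0.0476, and without Control mouse 2 it was 0.0429. One of the 3 annotated Ephx2 transcripts is listed in all files (ENSMUST00000070515, chr14:66084377-66124500, minus strand, GRCm38).

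Ephx1, which encodes microsomal epoxide hydrolase, had 16.2, 29.0, 14.9, 15.3 and 17.6 FPKM in Control. Control mouse 2 stood apart at 29.0 FPKM, since the next highest was 17.6 FPKM. Ang II mice had 30.3, 16.8, 18.3, 25.0 and 17.9 FPKM, and Ang II + QDG mice 24.3, 36.2, 28.6, 39.6 and 31.3 FPKM. All 5 Ang II + QDG mice were above the 4 lower Control mice and the 3 lower Ang II mice. The means were 18.6 ± 5.89, 21.7 ± 5.77 and 32.0 ± 6.08 FPKM. The log2 fold change was 0.22 (95% interval −0.21 to 0.65, adjusted p = 0.56) in Ang II vs. Control and 0.56 (95% interval 0.13 to 0.99, adjusted p = 0.174) in Ang II + QDG versus Ang II alone. Against Control, QDG-treated mice gave 0.78 (standard error 0.2, adjusted p = 0.118 from limma), or 1.71-fold, and without Control mouse 2 it was 0.94 with an adjusted p of 0.0351. The Ang II vs. Control value was 0.38 (adjusted p = 0.196) without that mouse and 0.1 without Ang II mouse 1. Its main transcript ENSMUST00000036928 had 18.2 ± 5.69 FPKM in Control and 30.6 ± 5.9 FPKM with QDG (adjusted p = 0.267). The scarce second transcript ENSMUST00000111068 was listed at 0, 0, 0.519, 0.627 and 0.644 FPKM in Control mice and at 0.781 to 2.08 FPKM in all QDG-treated mice, without overlap. QDG-treated mice were all above Control for 1.73% of the 28812 transcripts. Ang II values were 1.37, 1.14, 0, 0 and 0.65 FPKM and overlapped both groups. Against Control, the log2 fold change of FPKM + 1 for this transcript was 0.85 (unadjusted p = 0.00824, adjusted p = 0.341), and with a pseudocount of 0.1 it was 2.18 (unadjusted p = 0.03, adjusted p = 0.461), past the study's threshold but not called. The ratio of Ephx2 to Ephx1 had a median of 14.3 in Control (7.37 to 16.0), 11.2 in Ang II (6.52 to 12) and 6.23 with QDG (4.41 to 8.28), and the ranges of all 3 groups overlapped.

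Across the 15 mice Ephx1 was related to the summed markers of the loop and distal tubule and of the collecting duct. Against the summed loop and distal tubule markers (5 of 5 listed) Pearson's r was 0.726 (permutation p = 0.00244, adjusted p = 0.0195 over 72 relations) and Spearman's rho was 0.711 (permutation p = 0.00417, adjusted p = 0.0441). It was 0.649 without the 2 mice farthest from the median of Ephx1, and 0.649 after group means were removed. Against the summed collecting duct markers (6 of 7 listed, with Slc4a1 not listed) r was 0.766 (permutation p = 0.00129, adjusted p = 0.0118) and rho 0.711 (adjusted p = 0.0441). Without the 2 farthest mice that r was 0.823, and with group means removed it was 0.713. Within groups it was 0.789 in Control, 0.918 in Ang II and 0.205 with QDG, each over 5 mice. The largest part of the collecting duct sum was Aqp2 (means 139, 143 and 192 FPKM in the same order). The loop and distal markers summed to 1140 to 1480 FPKM in Control, 973 to 1410 in Ang II and 1290 to 1650 with Ang II + QDG, and the collecting duct markers to 187 to 359, 184 to 382 and 257 to 438 FPKM. Most of the loop and distal sum was Umod, a marker of the thick ascending limb (means 1020, 924 and 1180 FPKM), and its members did not move as 1 class. For QDG against Ang II alone, Umod (log2 fold change 0.36, adjusted p = 0.18) and Slc12a1 (1.25, adjusted p = 0.215) had positive values, whereas the distal markers Slc12a3 (−0.24, adjusted p = 0.712) and Calb1 (−0.33, adjusted p = 0.534) had negative ones, and none of the 5 was called. Of the collecting duct markers, Slc26a4 was called in Ang II vs. Control (0.49, adjusted p = 0.0312). With QDG all 6 had positive log2 fold changes, with a median of 0.14 against Ang II alone and 0.34 against Control, and none was called there. The part of these markers in the Ephx1 values was not tested. The genes most like Ephx1 were Epcam (r = 0.936), Tmem30b (0.929) and Icosl (0.929), and Epcam encodes an epithelial adhesion molecule. Ephx1 and Ephx2 were inversely related over the 15 mice (r = −0.778, permutation p = 0.001, adjusted p = 0.0118; rho = −0.775, adjusted p = 0.0211; r = −0.666 without the 2 farthest mice), and the relation was weaker with group means removed (r = −0.501).

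Cyp4b1 and Cyp2e1, the most abundant pair, showed no called difference, and both had negative log2 fold changes in all comparisons. Cyp4b1 had 1540, 1250, 1960, 1590 and 1610 FPKM in the Control mice. The Ang II mice were at 1390, 1370, 1530, 1450 and 1380 FPKM, and those given QDG at 1370, 1170, 1210, 882 and 1670 FPKM. The groups overlapped, and Ang II mice were the most alike (coefficient of variation 4.8%, against 15.8% in Control and 22.9% in Ang II + QDG). The log2 fold change was −0.15 (95% interval −0.45 to 0.16, adjusted p = 0.59), −0.2 (−0.51 to 0.1, adjusted p = 0.518) and −0.35 (−0.66 to −0.05, adjusted p = 0.284) in the comparisons of Ang II with Control, of QDG with Ang II alone and of QDG with Control. The first value was −0.23 without Control mouse 2 and −0.07 without Control mouse 3, and the second −0.31 without Ang II + QDG mouse 5 and −0.08 without mouse 4 of that group. For Ang II + QDG mouse 4, which had the lowest sum, 168 of the 882 FPKM fell on ENSMUST00000135569, annotated as a target of nonsense-mediated decay, which stood at 5.72 to 26.7 FPKM in the other 14 mice.

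Cyp2e1 had 830, 668, 1100, 814 and 895 FPKM in the Control mice. The Ang II mice were at 668, 862, 886, 751 and 738 FPKM, and those given QDG at 791, 513, 698, 539 and 902 FPKM. The log2 fold changes were −0.13 (95% interval −0.48 to 0.21, adjusted p = 0.684), −0.21 (−0.55 to 0.14, adjusted p = 0.567) and −0.34 (−0.68 to 0.01, adjusted p = 0.357) in the same order. Without 1 mouse, the first ran from −0.22 (Control mouse 2) to −0.04 (Control mouse 3) and the second from −0.31 (Ang II + QDG mouse 5) to −0.11 (Ang II + QDG mouse 2). All groups overlapped, and the lowest 2 values of the 15 mice were both in Ang II + QDG.

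The levels of these 2 genes and Ephx2 were related across the mice. For Cyp4b1 and Cyp2e1 r was 0.891 (permutation p = 2.0e-05, adjusted p = 4.8e-04 over 72 relations) and rho 0.85 (permutation p = 1.9e-04, adjusted p = 0.00684), with r = 0.83 without the 2 farthest mice and 0.852 with group means removed. Within groups r was 0.985 in Control, 0.482 in Ang II and 0.85 with QDG, each over 5 mice. Cyp4b1 was 1.59 to 2.28 times Cyp2e1 in all 15 mice. For Cyp4b1 and Ephx2 r was 0.858 (permutation p = 2.0e-05, adjusted p = 4.8e-04) and rho 0.829 (adjusted p = 0.00864), with 0.809 without the 2 farthest mice and 0.857 with group means removed. Cyp2e1 and Ephx2 gave r = 0.79 (permutation p = 4.5e-04, adjusted p = 0.00648; rho = 0.746, adjusted p = 0.0261; r = 0.757 without the 2 farthest mice and 0.786 with group means removed). Among all 12363 other genes, Cyp2e1 and Ephx2 were the first and second most like Cyp4b1. Ephx1 ran against Cyp2e1 (r = −0.78, permutation p = 3.2e-04, adjusted p = 0.00576), although by rank the relation missed the threshold (rho = −0.661, adjusted p = 0.0636), and r was −0.666 without the 2 farthest mice. Ephx1 also ran against Cyp4b1 (r = −0.715, permutation p = 0.00131, adjusted p = 0.0118; −0.538 without the 2 farthest mice and −0.547 with group means removed), again missing the threshold by rank (rho = −0.611, adjusted p = 0.0869). Ephx2 was related to Cyp2j5 (r = 0.694, permutation p = 0.00411, adjusted p = 0.0296; rho = 0.696, adjusted p = 0.0444; r = 0.588 without the 2 farthest mice), but r was 0.203 with group means removed. Ephx2 and Cyp4a12a gave r = 0.666 (permutation p = 0.00638, adjusted p = 0.0383; rho = 0.664, adjusted p = 0.0636; r = 0.713 without the 2 farthest mice), and 0.362 with group means removed. None of Cyp4b1, Cyp2e1 and Ephx2 passed the threshold against a summed segment marker list. The closest were Cyp2e1 with the proximal tubule sum (r = 0.615, permutation p = 0.014, adjusted p = 0.0644; rho = 0.6, adjusted p = 0.0869; r = 0.586 without the 2 farthest mice) and with the loop and distal sum (r = −0.631, permutation p = 0.0117, adjusted p = 0.0644; rho = −0.464, adjusted p = 0.214; r = −0.38 without the 2 farthest mice). FPKM values of 1 mouse share its depth and the composition of its library, and 12 of the 72 relations computed had an adjusted p under 0.05 for r.

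**Figure D3:**
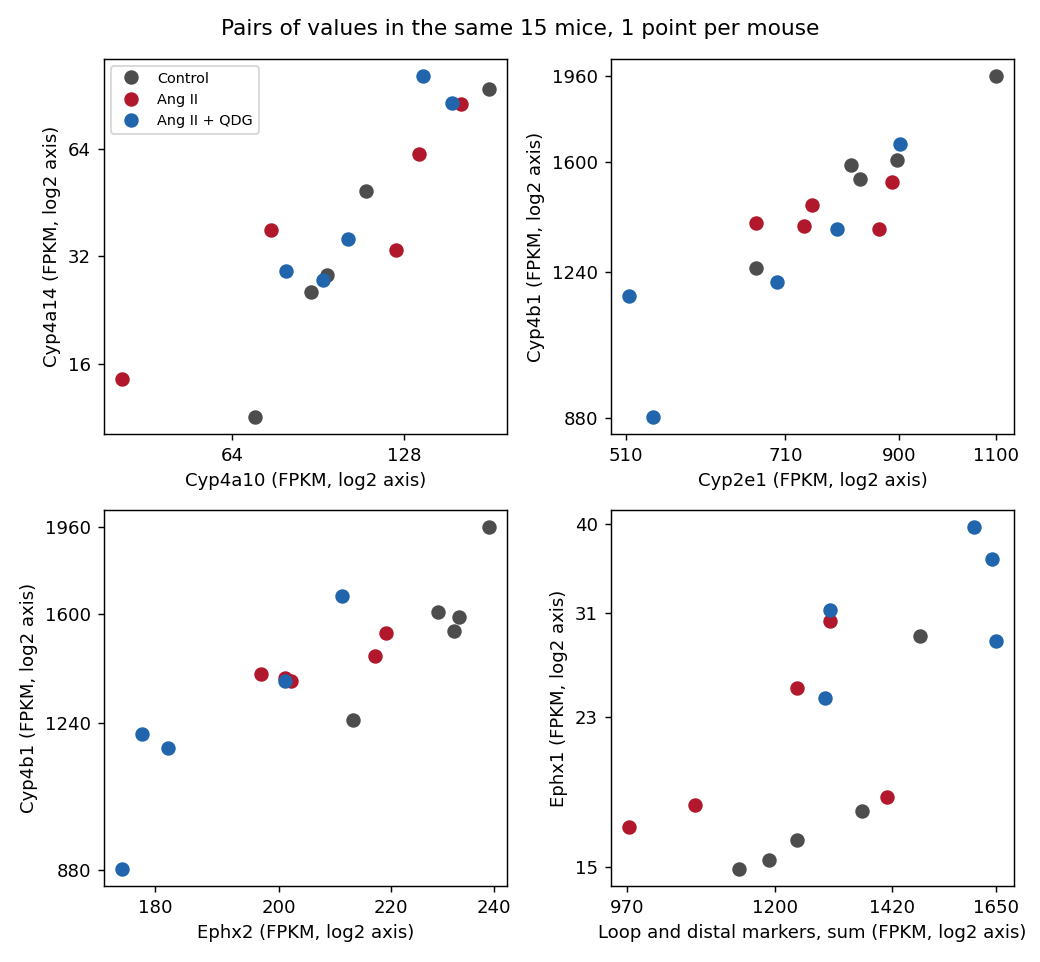
Pairs of values in the same 15 mice on log2 axes in FPKM, coloured by group: Cyp4a14 against Cyp4a10 (r = 0.877), Cyp4b1 against Cyp2e1 (r = 0.891), Cyp4b1 against Ephx2 (r = 0.858), and Ephx1 against the sum of 5 loop and distal tubule markers (r = 0.726). In the first 3 panels the mice of the 3 groups lie along 1 band, and in the fourth panel the Ang II + QDG mice lie mostly to the upper right.

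The upstream sequences of Cyp4b1 and Cyp2e1 are shown because these genes moved together. Each is 250 bases before the RefSeq start site on GRCm38.p6, 5′ to 3′, with motif matches in capitals as for Cyp2j5.
Cyp4b1 (chr4:115647722-115647971, minus strand): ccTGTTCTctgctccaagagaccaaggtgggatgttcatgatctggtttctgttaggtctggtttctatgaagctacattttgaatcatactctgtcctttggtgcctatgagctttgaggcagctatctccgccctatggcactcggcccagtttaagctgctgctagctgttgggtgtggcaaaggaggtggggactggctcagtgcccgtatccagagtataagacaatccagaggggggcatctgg
Cyp2e1 (chr7:140763569-140763818, plus strand): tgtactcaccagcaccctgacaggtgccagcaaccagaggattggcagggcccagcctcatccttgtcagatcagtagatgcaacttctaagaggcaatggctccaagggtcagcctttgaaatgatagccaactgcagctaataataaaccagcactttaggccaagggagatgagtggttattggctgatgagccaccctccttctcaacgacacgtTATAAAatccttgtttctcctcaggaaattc
Cyp2e1 has TATAAA at −31 from its RefSeq start site, and Cyp4b1 has AGAACA on the opposite strand at −248. The most abundant Cyp2e1 transcript, ENSMUST00000026552, is annotated to start at chr7:140763739, inside the printed window. This TATAAA therefore lies downstream of that start. A start just after the window, at chr7:140763819, belongs to ENSMUST00000209253, which was listed only for Control mice. Cyp4b1 and Cyp2e1 shared no match to the motifs searched.

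The 4 Cyp4a genes lie within 1 stretch of chromosome 4 on GRCm38: Cyp4a12a at chr4:115299046-115332815, Cyp4a12b at chr4:115411624-115439034 and Cyp4a10 at chr4:115518264-115533649 on the plus strand, and Cyp4a14 at chr4:115486200-115496142 on the minus strand. Cyp4b1 follows at chr4:115624725-115647723 on the minus strand. Their relation is visible in the coding stretch around the heme-binding cysteine, the residue that holds the iron of every P450. It is printed for the 7 P450s from the GRCm38 genome, 60 bases each, 5′ to 3′ on the coding strand, with the cysteine codon in capitals. In each gene it spans an exon junction, so the coordinates include an intron.
Cyp4a10 (chr4:115529496-115532567, plus strand): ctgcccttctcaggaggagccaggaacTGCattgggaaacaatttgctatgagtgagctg
Cyp4a12a (chr4:115328980-115331870, plus strand): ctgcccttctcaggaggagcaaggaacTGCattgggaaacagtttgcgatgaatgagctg
Cyp4a12b (chr4:115435234-115438093, plus strand): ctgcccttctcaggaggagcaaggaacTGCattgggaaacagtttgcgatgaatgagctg
Cyp4a14 (chr4:115487275-115489811, minus strand): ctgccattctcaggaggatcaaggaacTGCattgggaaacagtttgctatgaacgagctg
Cyp4b1 (chr4:115625192-115625668, minus strand): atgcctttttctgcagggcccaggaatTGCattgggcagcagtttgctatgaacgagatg
Cyp2j5 (chr4:96629603-96630726, minus strand): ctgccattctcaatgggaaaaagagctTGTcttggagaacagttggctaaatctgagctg
Cyp2e1 (chr7:140773756-140774601, plus strand): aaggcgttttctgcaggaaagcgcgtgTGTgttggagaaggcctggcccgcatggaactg
Cyp4a12a and Cyp4a12b have the same 60 bases, and over their coding sequence of 1527 bases they differ at 23 positions (98.5% identity). Cyp4a10 and Cyp4a14 share 54 of the 60 bases and 74.7% of their coding sequences, Cyp4a14 and Cyp4b1 share 48 of the 60, and Cyp4a10 and Cyp2e1 share 29. In the mature transcripts, 35.8% of the 100-base windows of Cyp4a12a and 36.2% of those of Cyp4a12b are found in the other gene, and 12% of those of Cyp4a10 are found in Cyp4a31 or Cyp4a32. For Cyp4a14 no window was shared. How the authors' counting divided such reads is not given in the sources used here, so the split between Cyp4a12a and Cyp4a12b is uncertain.

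Cyp4a12a, the 20-HETE synthase of male mouse kidney, was lower in all Ang II + QDG mice than in any Control mouse, but the difference did not pass the adjusted threshold. Control mice had 94.7, 57.0, 66.6, 54.5 and 51.2 FPKM, Ang II mice 58.0, 51.2, 46.0, 69.2 and 16.6 FPKM, and Ang II + QDG mice 30.6, 18.3, 38.5, 30.2 and 49.1 FPKM. Ang II overlapped both other groups. The log2 fold change was −0.52 (95% interval −1.25 to 0.21, adjusted p = 0.395) in Ang II vs. Control, −0.45 (−1.18 to 0.28, adjusted p = 0.555) in Ang II + QDG versus Ang II alone and −0.97 (−1.7 to −0.24, unadjusted p = 0.0125, adjusted p = 0.214 from limma) in Ang II + QDG versus Control, where the mean was 0.511 of Control on this scale. The first of these values was −0.18 without Ang II mouse 5 and −0.68 without Ang II mouse 4, and the second −0.26 without Ang II + QDG mouse 2 and −0.79 without Ang II mouse 5.

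Cyp4a12b, its near-identical neighbour, had 22.1, 20, 22.6, 13.9 and 7.38 FPKM in the Control mice. The Ang II mice were at 17.4, 1.86, 13.5, 28.1 and 9.92 FPKM, and those given QDG at 12.9, 18.0, 17.2, 15.2 and 16.6 FPKM. Its log2 fold change in Ang II vs. Control was −0.51 (95% interval −1.55 to 0.52, adjusted p = 0.575 from limma), near that of Cyp4a12a. For Ang II + QDG versus Ang II alone it was 0.5 (−0.54 to 1.53, adjusted p = 0.66), opposite in sign to Cyp4a12a. Against Control, Ang II + QDG gave −0.02 (95% interval −1.05 to 1.02, adjusted p = 0.995), an interval that includes the Cyp4a12a value of −0.97. Whether the 2 genes differed was not tested. In Ang II mouse 2 Cyp4a12b was at 1.86 FPKM while Cyp4a12a was at 51.2 FPKM. With both genes summed as 1 feature, an alternative chosen after seeing the data, the levels were 82.0 ± 22.5, 62.3 ± 26.3 and 49.3 ± 11.5 FPKM in Control, in Ang II and with QDG, and the sum in Ang II + QDG mouse 5 (65.7 FPKM) exceeded that in Control mouse 5 (58.5 FPKM). The log2 fold change of the sum in Ang II + QDG versus Control was −0.71 (95% interval −1.33 to −0.09, adjusted p = 0.286), so the separation of the groups in Cyp4a12a was lost. Markers of the S3 segment of the proximal tubule (5 of 5 listed) summed to 384 to 588 FPKM in Control, 427 to 593 in Ang II and 280 to 498 with Ang II + QDG, a sum that is mostly Slc7a13 (means 364, 384 and 306 FPKM). All 5 had negative log2 fold changes with QDG, against Control (median −0.28) as well as against Ang II alone (median −0.34). One of them, Acy3, was called in the latter, at 13.6 ± 0.512 FPKM in Ang II and 6.78 ± 1.63 FPKM with QDG, without overlap (−0.93, adjusted p = 0.0141). The part of these markers in the Cyp4a12a values was not tested.

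Cyp4a10 and Cyp4a14, fatty acid hydroxylases known as PPAR alpha targets, varied widely within every group and did not separate the groups. Cyp4a10 had 93.9, 110, 88.0, 70.3 and 180 FPKM in the Control mice. The Ang II mice were at 124, 41.1, 136, 161 and 75.0 FPKM, and those given QDG at 79.5, 138, 155, 92.2 and 102 FPKM. Cyp4a14 had 28.3, 48.9, 25.5, 11.3 and 94.5 FPKM in the Control mice. The Ang II mice were at 33.4, 14.5, 61.9, 85.5 and 38.0 FPKM, and those given QDG at 29.2, 103, 86.5, 27.4 and 35.8 FPKM. The 3 means of Cyp4a10 lay between 107 and 113 FPKM. Its log2 fold changes were −0.09 (95% interval −0.83 to 0.65), 0.18 (−0.56 to 0.92) and 0.09 (−0.65 to 0.83) in the comparisons of Ang II with Control, of QDG with Ang II alone and of QDG with Control, and those of Cyp4a14 were 0.26 (−0.98 to 1.5), 0.27 (−0.97 to 1.51) and 0.53 (−0.71 to 1.77). All 6 intervals include 0 and reach 0.56 or more in both directions, so a change of that size in either direction is not excluded.

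The same mice were high in both genes. Over the 15 mice r was 0.877 (permutation p = 1.0e-05, the smallest that 100000 permutations can give, adjusted p = 4.8e-04 over 72 relations) and rho 0.861 (permutation p = 9.0e-05, adjusted p = 0.00648), with r = 0.865 without the 2 farthest mice and 0.895 with group means removed. Within groups r was 0.971 in Control, 0.911 in Ang II and 0.938 with QDG. Cyp4a14 was the gene most like Cyp4a10 of all 12363 others, followed by Mettl7a2 (r = 0.85) and Mettl7a3 (r = 0.839). Cyp4a12a did not follow Cyp4a10 (r = 0.0552, permutation p = 0.845; rho = 0.0786, permutation p = 0.785; r = 0.118 without the 2 farthest mice). Cyp4a10 was also related to the summed loop and distal markers by r (0.683, permutation p = 0.00481, adjusted p = 0.0315), whereas by rank the relation missed the threshold (rho = 0.65, adjusted p = 0.0694) and r was 0.572 without the 2 farthest mice.

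The sum of the 4 Cyp4a genes had a median of 236 FPKM in Control (150 to 333), 233 FPKM in Ang II (109 to 343) and 203 FPKM with Ang II + QDG (152 to 297), with the groups overlapping throughout. Cyp4a12a made up a median of 32.9% of this sum in Control (15.4% to 39.6%), 20.1% in Ang II (11.9% to 47.1%) and 18.3% in Ang II + QDG (6.61% to 24.2%). Cyp4a10 made up a median of 46.6%, 52.9% and 52.1%, and Cyp4a14 of 12.6%, 24.0% and 19.2%. All of these ranges overlapped between groups.

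**Figure D4:**
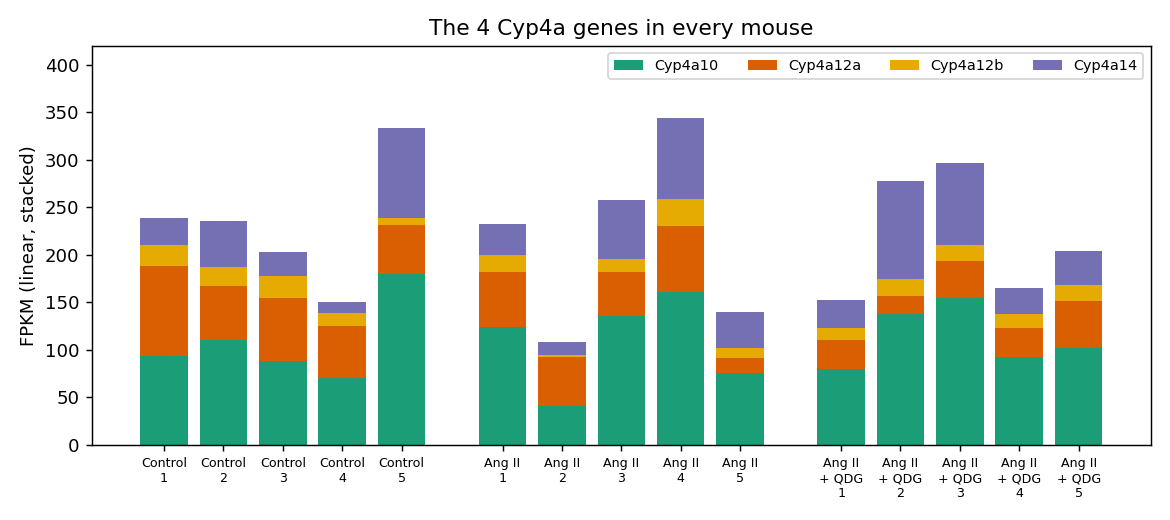
Stacked FPKM of the 4 Cyp4a genes on a linear axis, 1 column per mouse, with mice numbered 1 to 5 in each group. Column heights run from 109 to 343 FPKM with tall and short columns in every group, and Cyp4a10 is the largest part in 13 of the 15 mice.

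Other genes of the pathway were read from lists of family members and partners. Of 18 further Cyp4 names 9 were tested and none was called in any comparison by limma. The smallest p-values belonged to Cyp4f18 (log2 fold change −0.43 in Ang II vs. Control, adjusted p = 0.106) and Cyp4f13 (0.3 in Ang II + QDG versus Control, adjusted p = 0.318). Among 23 further Cyp2c and Cyp2j names 4 were tested, and 1 was called: Cyp2j6, a relative of Cyp2j5, rose from 10.5 ± 0.431 FPKM in Ang II to 13.4 ± 1.2 FPKM in Ang II + QDG (log2 fold change 0.33, adjusted p = 0.0226), with every Ang II + QDG mouse above every Ang II mouse. Control mice had 11.1 ± 0.411 FPKM. The call was lost with only the 2 groups compared (adjusted p = 0.0699) and without Ang II mouse 2 or Ang II + QDG mouse 2, 4 or 5 (at most 0.0583). Cyp2j13 had a log2 fold change of −0.49 in Ang II + QDG versus Ang II alone (adjusted p = 0.15), and Cyp2c23, a lead arachidonate epoxygenase name in rodent kidney, had 0.65 in the same comparison (adjusted p = 0.29).

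Of the 5 electron donors of P450s, all tested, Cyb5r3, which reduces cytochrome b5, rose in Ang II vs. Control from 65.6 ± 3.32 to 76.9 ± 2.83 FPKM, by 0.23 on the log2 scale (adjusted p = 0.015), with no overlap between the groups. After median scaling it was 0.14 (adjusted p = 0.11). Por, the reductase that passes electrons to all microsomal P450s, was at 116 ± 9.64 FPKM in Control against 164 ± 43.1 FPKM in Ang II, and its log2 fold change of 0.47 missed the threshold (adjusted p = 0.0556). No donor was called in Ang II + QDG versus Ang II alone or Ang II + QDG versus Control. None of the 11 tested genes (of 14) for release and re-esterification of arachidonic acid was called, and the smallest unadjusted p-values were those of Acsl4 (0.35, adjusted p = 0.154) and Pla2g4a (0.27, adjusted p = 0.306) in Ang II + QDG versus Control. In Ang II vs. Control Acsl4 had a smaller adjusted p (0.34, adjusted p = 0.0752), with every Ang II mouse above every Control mouse. No call was made either for Lta4h, the 1 tested of 3 other epoxide hydrolase names (0.07 in Ang II + QDG versus Control, adjusted p = 0.761). From 9 names of lipoxygenases and related genes 3 were tested, and none was called. They were the lipoxygenase Alox12 (0.35 in Ang II + QDG versus Ang II alone, adjusted p = 0.251), Ltc4s (0.58 in Ang II vs. Control, adjusted p = 0.274) and Alox5ap (−0.38 in Ang II vs. Control, adjusted p = 0.376). Ltc4s and Alox5ap do not encode lipoxygenases. Gpr75, named as a receptor of 20-HETE, was not listed in the files.

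Genes linked to PPAR alpha and to androgen were counted because Cyp4a10, Cyp4a14 and Cyp4a12a are known to respond to them. The lists were chosen with earlier results of these data known, so their counts are not independent evidence. Of 24 PPAR alpha-linked genes 23 were tested and none was called. In Ang II vs. Control 11 had a positive log2 fold change and 11 a negative one, with a median of 0 against 0.08 over all genes. For Ang II + QDG versus Control it was 15 and 7, with a median of 0.15 against 0.06. Values that round to 0 were counted on neither side. With QDG against Ang II alone, 18 of the PPAR alpha-linked genes had a positive log2 fold change and 5 a negative one. The median there was 0.16 against −0.02 over all genes. Acaa1b, a peroxisomal thiolase, had 160 ± 20.3 FPKM in Ang II and 242 ± 46.9 FPKM in Ang II + QDG without overlap (log2 fold change 0.59, adjusted p = 0.0657), and Vnn1, a pantetheinase, had a log2 fold change of 0.85 (adjusted p = 0.198). Of 13 androgen-linked kidney genes 11 were tested, and 3 fell in Ang II + QDG versus Ang II alone, where 1.29% of all genes were called lower. In that comparison 4 of the 11 had a positive log2 fold change and 7 a negative one, with a median of −0.34 against −0.02 over all genes. Odc1, the first enzyme of polyamine synthesis, fell by 1.3 on the log2 scale, from 562 ± 110 to 230 ± 55.9 FPKM (adjusted p = 0.0255). Nudt19, which cleaves coenzyme A, fell from 481 ± 229 to 218 ± 51.8 FPKM (−1.07, adjusted p = 0.0487), and Slco1a1, an organic anion transporter, from 12.2 ± 3.15 to 5.45 ± 2.58 FPKM (−1.08, adjusted p = 0.0424). Odc1 was called under all 11 other settings and in 10 of 15 fits without 1 mouse, losing the call without Ang II mouse 2 or 3 or Ang II + QDG mouse 2, 3 or 5. The calls of Nudt19 and Slco1a1 were fragile, since they held under 4 and 6 of the 11 settings and in 1 and 3 of the 15 fits, and from its most abundant transcript alone Slco1a1 had −0.28 (adjusted p = 0.604). The S3 markers moved with them, since all 5 had negative log2 fold changes here and Acy3 was called lower, as given above, and Slc7a13 stands in both lists; their part in these differences was not tested. Kap, the most abundant of the list, had a log2 fold change of 1.39 in the same comparison (adjusted p = 0.134), opposite in sign. None of the androgen-linked genes was called in Ang II vs. Control or in Ang II + QDG versus Control, and Cyp4a12a, with −0.45, was not called in Ang II + QDG versus Ang II alone.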

How the data were processed

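Total RNA from the kidneys of 15 mice was depleted of rRNA, the study's methods also name a poly(A) step, and libraries were sequenced in pairs on an Illumina HiSeq. The authors deposited a file for each mouse, with a value for every Ensembl transcript listed and for transcripts they assembled (11141 in all files, 9.6% to 11.9% of the total per mouse), which carry no gene name and were left out of gene sums, as was a Cyp2e1 transcript listed only for Control mice (ENSMUST00000209253). The submitters' processing notes name mm10 and limma; aligner, assembler and annotation release are not given in the sources used here. The deposited values were taken as FPKM, since multiplying by the GENCODE M21 length gave, after division by 1 constant for the mouse, a whole number within 0.02 for 98.3% to 98.5% of values under 200 reads. That constant gave the depths stated.

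FPKM were summed per gene over the transcripts in all 15 files (16 for the 9 members, of which 15 passed the filter as single transcripts), and genes reaching 1 FPKM in 5 or more mice were kept. Log2(FPKM + 1) was fitted with limma 3.58.1 in R 4.3.3 (group means, trend, 12 residual degrees of freedom, two-sided), which was tested on simulated data. The pseudocount of 1 understates changes of low genes. Correlations used 100000 permutations, two-sided, in scipy 1.17.1, with Benjamini-Hochberg adjustment over 72 relations. The permutations shuffled all 15 mice without regard to group, so their p-values also take in differences between group means. No p-value was computed for r with group means removed. RefSeq promoters on GRCm38.p6 were matched by symbol for 4 of 9 members (Cyp2j5, Cyp4b1, Cyp2e1 and Ephx1). The members and lists were chosen with earlier results of these data known. All members were named in every comparison, and from each list the called genes, or the 2 with the smallest p. Cyp2c23, Kap and Cyp4a31 were named after their values were seen.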

Additional observations from a re-analysis of the deposited data

Results flagged for a closer look

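Among 57 sets of 5 mice (the 9 genes, and 10 transcripts of members with several listed, each with a mean of at least 1 FPKM in 1 group or more, taken in all 3 groups), 9 held a mouse far from the other 4 by Dixon's test at the 95% level, where chance gives about 1 in 20. A gene and its main transcript hold nearly the same values, so these sets are not independent. Ephx1 was at 29.0 FPKM in Control mouse 2, with the nearest Control mouse at 17.6 FPKM, and its transcript ENSMUST00000036928 was at 28.3 FPKM there against 17.0 FPKM. The minor Cyp4a10 transcript ENSMUST00000058785 was at 0.111 FPKM in Control mouse 5 (nearest 2.85 FPKM), at 15.4 FPKM in Ang II mouse 1 (nearest 2.79 FPKM) and at 15.6 FPKM in Ang II + QDG mouse 2 (nearest 3.05 FPKM). The Cyp4b1 transcript ENSMUST00000135569, annotated as a target of nonsense-mediated decay, was at 26.7 FPKM in Control mouse 4 (nearest 8.49 FPKM) and at 168 FPKM in Ang II + QDG mouse 4 (nearest 10.3 FPKM). The Cyp4b1 transcript ENSMUST00000145841 was at 11.3 FPKM in Control mouse 3 (nearest 7.95 FPKM) and at 6.07 FPKM in Ang II mouse 1 (nearest 7.47 FPKM).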

How the results depend on the processing

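Cyp2j5 in Ang II vs. Control was called under all 11 other settings (adjusted p = 0.00511 to 0.0375 from limma) and without each mouse in turn (0.0158 to 0.0406; 1 member called throughout). Quantile normalization called 2 members there, adding Ephx2 (adjusted p = 0.0311). In Ang II + QDG versus Control, median scaling called 1 member (Cyp2j5, log2 fold change −0.26, adjusted p = 0.0241), summing all listed transcripts called 2 (Cyp2j5, adjusted p = 0.0493, and Ephx2, adjusted p = 0.046), and leaving out 1 mouse called 0 to 2 (Ephx1 and Ephx2 without Control mouse 2, Ephx2 without Ang II + QDG mouse 5). Of the members' transcripts in Ang II vs. Control, 1 was called, 0 with quantile normalization, 0 with only the 2 groups compared and 0 to 1 without 1 mouse (0 in 8 of 15 fits); median scaling called 1 in Ang II + QDG versus Control. The cause of these shifts was not tested. No setting that kept all mice turned the direction of a member. Without 1 mouse, the direction of uncalled values turned: the log2 fold change of Cyp4a10 ran from −0.27 to 0.21, −0.12 to 0.36 and −0.04 to 0.29 in the comparisons of Ang II with Control, of QDG with Ang II alone and of QDG with Control, that of Cyp4a12b from −0.84 to 0, −0.02 to 0.82 and −0.27 to 0.1, that of Cyp4a14 from −0.11 to 0.63 and −0.08 to 0.54 in the first 2, and that of Cyp2j5 from −0.01 to 0.03 in Ang II + QDG versus Ang II alone. Over all genes, 735 (612 higher, 123 lower) were called in Ang II vs. Control, 496 (228 and 268) after quantile normalization, 470 (201 and 269) after median scaling, 457 with only 2 groups, 408 with protein-coding transcripts alone, 353 with the most abundant transcript and 337 (without Control mouse 1) to 798 (without Control mouse 2) when 1 mouse was left out. In Ang II + QDG versus Ang II alone the 224 (65 and 159) became 194 (97 and 97) after quantile normalization, 187 (72 and 115) after median scaling, 58 with only 2 groups and 53 (without Ang II mouse 2) to 254 (without Ang II + QDG mouse 1); in Ang II + QDG versus Control the 16 became 4 with only 2 groups, 80 with all listed transcripts, 6 with protein-coding transcripts or the most abundant transcript, and 0 (without Control mouse 4) to 110 (without Control mouse 2). Of the other genes called, Cyb5r3 lost its call after quantile normalization (adjusted p = 0.0688), after median scaling (0.11) and with its most abundant transcript (0.0541). Each group held different mice, so the design has no pairing between groups. The labels give no replicate numbers, and mouse numbers follow the order of deposit. Depth limits little here, since the lowest member value rested on 353 reads.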

Other observations

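Cyp4a31, a relative of Cyp4a10 that shares 100-base windows with it, was looked at after its values were seen. It was at 35.2 FPKM in Control mouse 2, 17.6 FPKM in Ang II mouse 2, and 42.6 and 30.7 FPKM in Ang II + QDG mice 2 and 4, and at 82.7 to 142 FPKM in the other 11 mice. No comparison called it.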
